A study of Rattus norvegicus with 96 samples.

Results

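The GABA-A receptor subunits Gabra2, Gabra3, Gabra4, Gabra5, Gabrb1, Gabrb2 and Gabrg1 were followed in the central nucleus of the amygdala of rats bred over generations to prefer or to avoid alcohol. They were chosen by name, with earlier results of these data known. All probe sets annotated to these 7 gene symbols alone were taken. This gave 8 of the 31042 probe sets and 7 of the 14217 genes with a 1-symbol probe set. Gabrb2 had 2 probe sets, named here by the transcripts they were designed on, NM_012957 and AW522872, and each of the other 6 genes had 1. The data are 96 Affymetrix arrays, each titled with an animal of its own, with values on a log2 scale.

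The lines form 5 pairs. Each pair holds a line bred to prefer alcohol and a line bred to avoid it: HAD1 rats (9 arrays) with LAD1 rats (10), HAD2 with LAD2 (10 each), P with NP (10 each), AA with ANA (10 each), and sP (8) with sNP (9). In general usage HAD and LAD are high- and low-alcohol-drinking rats, P and NP alcohol-preferring and non-preferring rats, AA and ANA the ALKO lines, and sP and sNP the Sardinian lines. Sex, age and any alcohol intake of the animals are not given in the labels used here, and what the groups share is the dissected nucleus and the array protocol. The design asks how subunit expression differs within each pair and which differences recur over pairs. Animals of a line share descent, so p-values speak of variation among the animals of these lines and not over independent rounds of selection.

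GABA-A receptors are chloride channels that open when they bind GABA, the main inhibitory transmitter of the brain. Each is a ring of subunits, in the common form alpha and beta subunits with a gamma subunit; GABA binds between beta and alpha, benzodiazepines bind between alpha and gamma, and the alpha subunit sets much of the pharmacology and the place of the receptor at or outside the synapse. Most neurons of the central amygdala are themselves GABAergic, and alcohol is known to enhance GABA transmission there. In people, variation near GABRA2 has been associated with alcohol dependence, and in mice a mutation of Gabrb1 raises alcohol intake.

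In the RefSeq annotation of the rat assembly GRCr8, 4 of the genes lie in a cluster on chromosome 14 that holds 5 protein-coding genes in the order Gabrb1, Gabra4, Cox7b2, Gabra2 and Gabrg1. Gabra3 lies on chromosome X, Gabra5 on chromosome 1 and Gabrb2 on chromosome 10. RefSeq promoters, here the 250 bases before the transcript start in GRCr8, were at hand for 6 of the 7 genes, Gabra2 being the exception. Each window precedes the start of a single transcript. For Gabra5, Gabrb1 and Gabrb2 it lies inside the annotated gene and not before the gene's outer end. The 4 shown are those of Gabra3, which carried the 1 called difference below, of Gabra4 and Gabra5, whose values moved together from array to array, and of Gabrb1, the neighbour of Gabra4. They are written 5′ to 3′ on the strand of the gene, and capitals mark the GC box or TATA box letters described after them, on either strand.
Gabra3, GRCr8 chrX:155543871-155544120, minus strand: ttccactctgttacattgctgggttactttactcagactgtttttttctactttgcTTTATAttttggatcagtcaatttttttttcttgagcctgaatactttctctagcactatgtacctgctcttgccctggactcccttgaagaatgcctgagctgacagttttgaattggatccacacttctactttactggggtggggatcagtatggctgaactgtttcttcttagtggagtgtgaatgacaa
Gabra4, GRCr8 chr14:36944497-36944746, plus strand: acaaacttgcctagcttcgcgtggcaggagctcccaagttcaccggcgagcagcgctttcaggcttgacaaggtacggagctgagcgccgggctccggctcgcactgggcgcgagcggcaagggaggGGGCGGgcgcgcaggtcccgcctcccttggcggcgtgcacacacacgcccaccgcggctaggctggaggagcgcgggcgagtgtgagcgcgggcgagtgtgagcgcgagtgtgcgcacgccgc
Gabra5, GRCr8 chr1:117516607-117516856, minus strand: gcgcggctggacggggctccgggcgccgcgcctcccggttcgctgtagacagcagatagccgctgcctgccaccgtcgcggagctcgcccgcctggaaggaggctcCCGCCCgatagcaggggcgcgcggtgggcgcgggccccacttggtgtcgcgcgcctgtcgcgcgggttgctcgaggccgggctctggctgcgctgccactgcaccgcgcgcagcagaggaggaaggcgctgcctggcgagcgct
Gabrb1, GRCr8 chr14:36902894-36903143, minus strand: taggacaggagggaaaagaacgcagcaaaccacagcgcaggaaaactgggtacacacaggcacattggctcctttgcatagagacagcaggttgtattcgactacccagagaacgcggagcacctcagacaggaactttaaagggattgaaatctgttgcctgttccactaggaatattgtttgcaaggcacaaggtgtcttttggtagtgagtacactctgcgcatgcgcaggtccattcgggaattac

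The promoters of Gabra4 and Gabra5 were rich in G and C, at 71.6% and 76.4%, against 40.4% for Gabra3, 43.2% for Gabrb2, 48.4% for Gabrg1 and 49.2% for Gabrb1. The median over all RefSeq rat promoters was 51.2%. The GC box letters, GGGCGG, stood 123 bases before the start of Gabra4 on the given strand and 144 bases before that of Gabra5 on the opposite strand, and 30.5% of the 33469 promoters of this length hold one. Gabra3 had TATAAA on the opposite strand 194 bases before the start, the TATA box letters, which 12.9% of promoters hold. The letters GCGTGGG (Egr, held by 3.68% of promoters) and TGACGTCA (CRE, held by 1.59%) were in 0 of the 6 windows.

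Several arrays limit what follows. GAPDH controls gave a log2 ratio of 3′ to 5′ signal, which cannot tell RNA quality from processing. It averaged 3.33 to 4.09 in the HAD and LAD lines and 0.20 to 0.43 in the other lines, so differences were tested within pairs. By expression on chromosomes that hold no subunit gene followed here, 14 arrays lay on the side of the other line of their pair and are called doubted: HAD1 28, LAD1 37, P 1, P 9, NP 1, NP 9, AA 15, AA 17, AA 19, ANA 16, sP 2, sP 9, sNP 8 and sNP 9, with 0 in HAD2 and LAD2. To leave such arrays out raises line differences by construction in the probe sets used for this check, and can in others. Differences of the subunits, which were not used for it, grew in some cases and shrank in others. The arrays sP 2 and sNP 2 were nearly identical, with an SD of 0.09 between their values against 0.16 for the next closest arrays. The array LAD1 36 is labelled LAD1 in its title and HAD1 in its source name, and was kept as LAD1. By the same check of expression on other chromosomes it lay on the LAD1 side and was not doubted. Markers of central amygdala neurons fixed for this check had a median percentile of 73.6 among all probe sets, from 21.5 for Calcrl to 99.6 for Penk. Markers of excitatory neurons of the neighbouring basolateral nucleus and cortex had a median of 31, from 9.64 for Tbr1 to 97.2 for Camk2a, and striatal markers a median of 83.1.

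Across the 8 probe sets and 5 pairs, 1 of 40 tests passed limma's moderated test at an adjusted p under 0.05 over all 31042 probe sets: Gabra3 was higher in HAD1 than in LAD1 rats, a comparison in which 0.963% of all probe sets passed. An unadjusted p under 0.05 was reached by 7 of the 40, of which 6 were positive, meaning higher in the preferring line: Gabra3 and Gabra4 in HAD1, Gabra2 and Gabra4 in HAD2, Gabra3 in P and Gabra4 in sP, with Gabrg1 in AA the 1 negative. In 0 of 40 did the ranges of both lines lie apart.

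The background differed widely between pairs. In HAD1 against LAD1, 0.477% of all 31042 probe sets passed and were higher in HAD1, where 1 of 8 subunit probe sets did, and 4.09% passed in HAD2 against LAD2, where 0 of 8 did. In P against NP, AA against ANA and sP against sNP, 0% of all probe sets passed and 0 of 8 here. Without the doubted arrays 502, 579 and 542 of all 31042 passed in P, AA and sP in that order, and with all 10 lines in 1 fit 168, 203 and 2. At an unadjusted p under 0.05 the shares over all probe sets were 11%, 16.4%, 4.91%, 4.92% and 4.32% for HAD1, HAD2, P, AA and sP in that order, and the counts here were 2, 2, 1, 1 and 1 of 8. Ranges of both lines lay apart for 0.0193%, 0.860%, 0%, 0% and 0.00966% of all probe sets in the same order. The median difference of the 8 probe sets was 0.14 in HAD1, 0.01 in HAD2, 0.05 in P, 0.04 in AA and -0.0059 in sP, and that of all probe sets lay between -0.01 and 0.0061 in every pair.

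**Figure D1:**
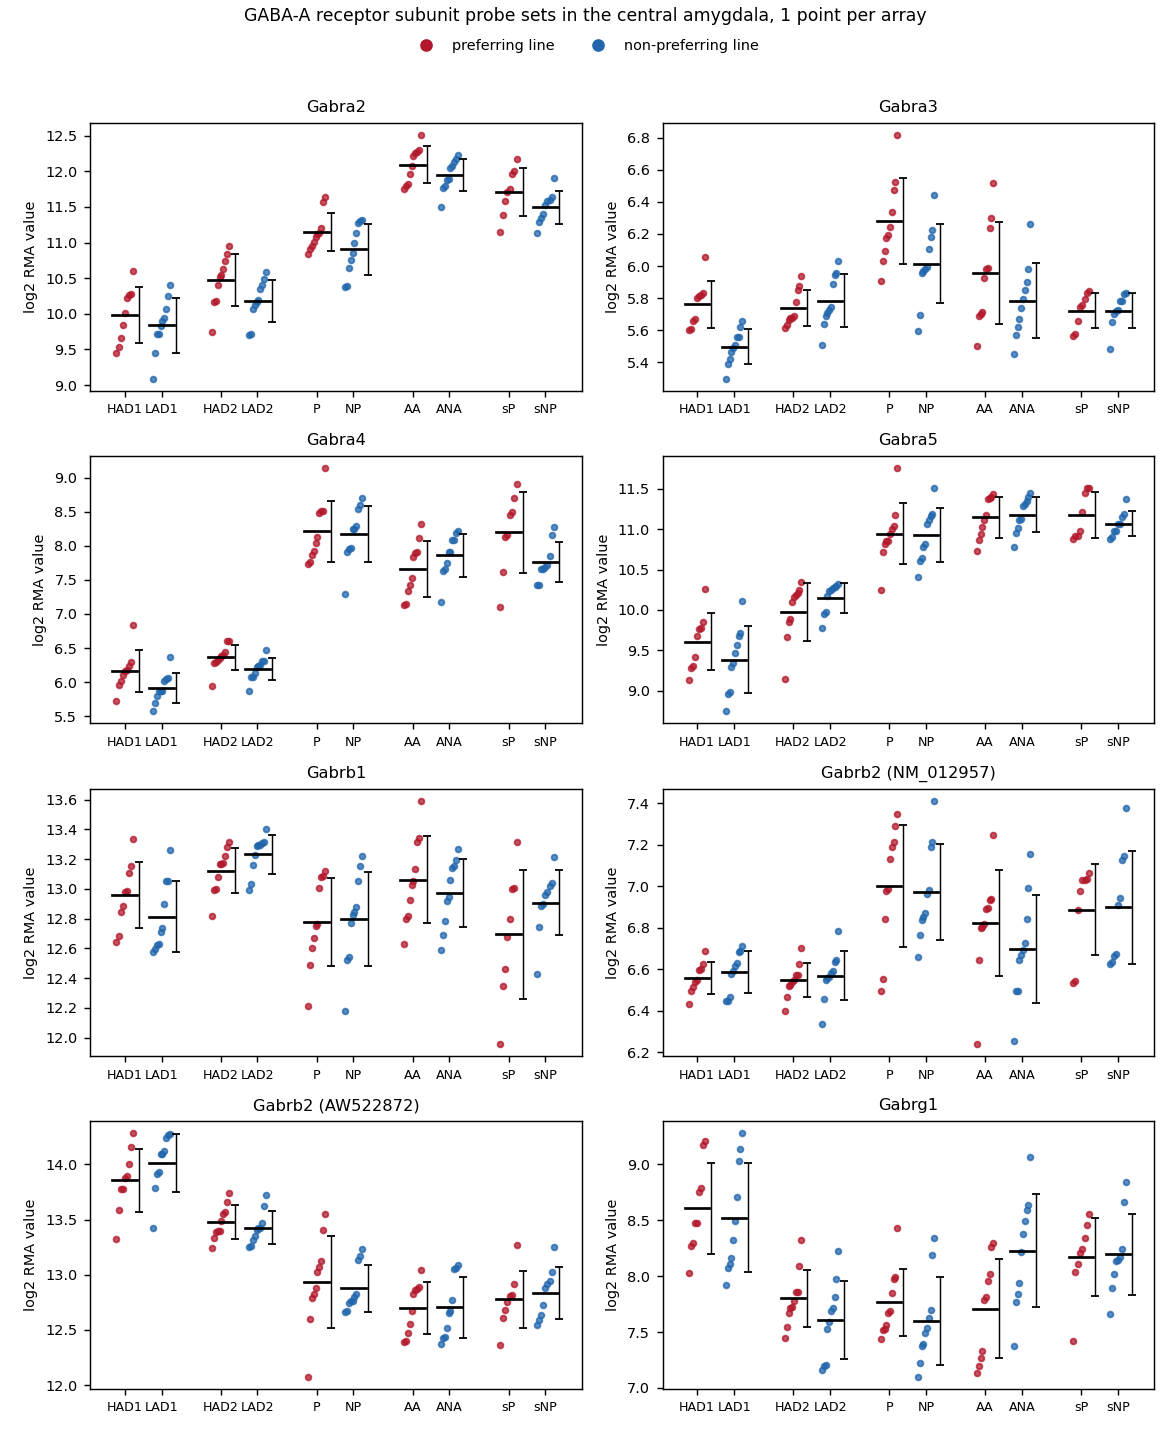
Log2 RMA value (y axis) of each subunit probe set on each of the 96 arrays by line (x axis), preferring line in red left of its pair's other line in blue, with the line mean as a bar and ± 1 SD as a bracket. Both lines of every pair overlap in all 8 panels, and HAD1 and LAD1 in the Gabra3 panel overlap between 5.60 and 5.66.

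**Figure D2:**
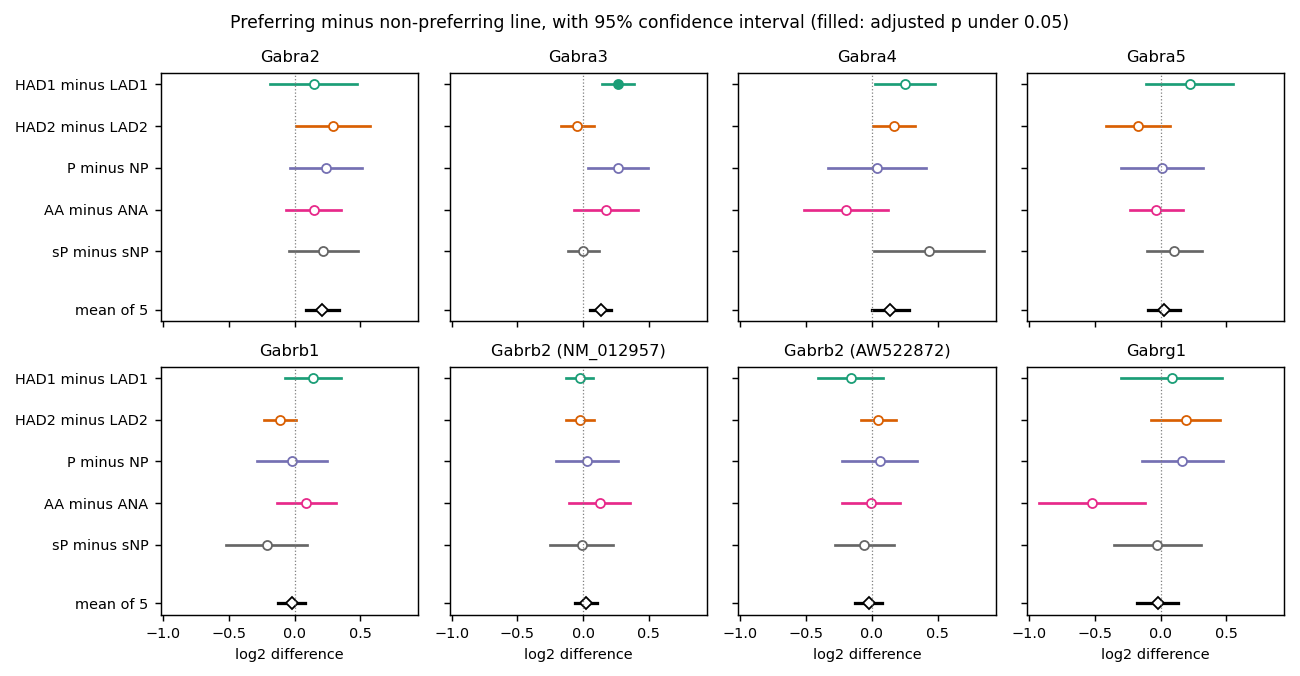
Preferring minus non-preferring line for each probe set in log2 units with its 95% confidence interval, 1 row per pair and the equal-weight mean of the 5 pairs at the bottom, filled where the adjusted p is under 0.05. Gabra3 in HAD1 is the 1 filled point, and Gabra2 lies right of 0 in all 5 pairs, from 0.14 to 0.29.

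Gabra3 encodes alpha3, a benzodiazepine-sensitive subunit known from monoamine neurons and the reticular thalamus. In HAD1 rats its lowest, median and highest values were 5.60, 5.80 and 6.06, against 5.30, 5.50 and 5.66 in LAD1 rats. The upper end of LAD1 reached the lower end of HAD1, but all 9 HAD1 arrays lay above the LAD1 mean and all 10 LAD1 arrays below the HAD1 mean. The means were 5.76 ± 0.15 (SD, n = 9) in HAD1 and 5.50 ± 0.11 (SD, n = 10) in LAD1, a difference of 0.27 (SE 0.06, 95% confidence interval 0.15 to 0.39), or 1.20-fold (limma adjusted p = 0.0263).

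The Gabra3 call in HAD1 was narrow. It was lost without HAD1 21 (adjusted p = 0.0590), HAD1 23 (0.0553), LAD1 33 (0.0506), LAD1 34 (0.0560) or LAD1 36 (0.0512), and kept in the other 14 of 19 cases, with differences from 0.23 to 0.29. It was also lost with all 10 groups in 1 fit (adjusted p = 0.106) and with LAD1 36 counted as HAD1, where the difference was 0.23 (adjusted p = 0.198). Without the doubted HAD1 28 and LAD1 37 it was 0.26 (adjusted p = 0.0303), and with the GAPDH ratio as a covariate 0.25 (adjusted p = 0.0379). The probe set was dim, with a median percentile of 22.9, and no detection calls were used. Where lines carry different bases at a probe's target, the value can shift as well, and in bulk tissue fewer cells of a type and less RNA per cell cannot be told apart. Both limits hold for every gene here.

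Microglial markers also differed between HAD1 and LAD1 rats. Of 10 measured, 0 had a positive difference, with a median of -0.19; C1qc, a complement component, fell by 0.48 on the log2 scale (SE 0.11, adjusted p = 0.0266) and Cx3cr1, a chemokine receptor, fell by 0.40 (SE 0.09, adjusted p = 0.0348). The log2 of the summed markers ran from 12.82 to 13.36 in HAD1, with a median of 13.06, and from 12.92 to 13.67 in LAD1, with a median of 13.27. Abcb1a, a transporter of the vessel wall, fell by 0.67 (SE 0.16, adjusted p = 0.0403), the 1 call among 9 vascular markers. Values on this scale have no true 0, so no marker can be called absent, and the part of these cells in the Gabra3 difference was not tested. In HAD2 rats, where Gabra3 differed by -0.04, 2 of 10 microglial markers were positive with a median of -0.24, and Cx3cr1 fell by 0.30 while P2ry12 rose by 0.64. Over 96 arrays with line means removed, Gabra3 and the summed microglial markers had r = -0.14.

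In the other pairs Gabra3 did not pass. P rats had 5.90, 6.22 and 6.81, against 5.60, 5.99 and 6.44 in NP rats, a difference of 0.27 (SE 0.11, adjusted p = 0.881), with 9 of 10 P arrays above the NP mean. AA rats had 5.50, 5.96 and 6.52, against 5.45, 5.77 and 6.26 in ANA rats (0.17, SE 0.12). The difference in P was as large as that in HAD1, but arrays within P and NP spread more, with SDs of 0.27 and 0.25. HAD2 rats had 5.62, 5.68 and 5.94, against 5.51, 5.73 and 6.03 in LAD2 rats (-0.04, SE 0.06). The sP rats had 5.56, 5.75 and 5.85, against 5.48, 5.72 and 5.83 in sNP rats (-2.63e-04, SE 0.06). In these 2 pairs the lines covered nearly the same range.

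Gabra2 encodes alpha2, the benzodiazepine-sensitive subunit of limbic synapses that mediates the anxiety-reducing action of these drugs in mice. AA rats had 11.75, 12.14 and 12.50, against 11.51, 11.97 and 12.23 in ANA rats, a difference of 0.14 (SE 0.10). HAD2 rats had 9.75, 10.53 and 10.95, against 9.70, 10.18 and 10.59 in LAD2 rats, a difference of 0.29 (SE 0.14, p = 0.0410, adjusted p = 0.279). In both pairs most preferring arrays lay above the other line's mean, 7 of 10 AA and 8 of 10 HAD2 arrays, and the ranges overlapped over most of their length.

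Gabra2 was positive in the other 3 pairs as well. P rats had 10.84, 11.10 and 11.64, against 10.37, 10.92 and 11.31 in NP rats, a difference of 0.24 (SE 0.13), with 9 of 10 P arrays above the NP mean. The sP rats had 11.16, 11.73 and 12.17, against 11.13, 11.53 and 11.90 in sNP rats, a difference of 0.22 (SE 0.12). HAD1 rats had 9.45, 10.01 and 10.60, against 9.09, 9.86 and 10.41 in LAD1 rats, a difference of 0.15 (SE 0.16). In none of the 5 pairs did Gabra2 pass the adjusted test, and with LAD1 36 counted as HAD1 the HAD1 difference was -0.025.

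Over the 5 pairs the mean difference of Gabra2 was 0.21 (SE 0.06, 95% confidence interval 0.08 to 0.33), and it did not pass (limma adjusted p = 0.0965). Of all probe sets, 2.39% were positive in all 5 pairs and 5.21% had 1 sign in all 5, so a shared sign alone was not rare. The 5 differences lay between 0.14 and 0.29, and the F test found no variation among them past the threshold (adjusted p = 0.986). Leaving out 1 pair at a time gave means of 0.19 to 0.23, with adjusted p from 0.0986 to 0.384. With the line pair as the replicate limma gave an SE of 0.03, p = 1.92e-04 and adjusted p = 0.999, in a fit that called 0% of all probe sets, with 3.35% at an unadjusted p under 0.05.

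The call on Gabra2 turned on how arrays were treated. Without the doubted arrays the mean was 0.28 (SE 0.07, adjusted p = 0.00738), and with array weights, which count arrays that stand apart less, 0.26 (adjusted p = 0.00347). Both are past the threshold, in fits that called 2.97% and 2.23% of all probe sets. The first leaves out arrays by their likeness to the other line of their pair, which can raise differences. With the GAPDH ratio as a covariate the mean was 0.22 (adjusted p = 0.0585).

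**Figure D3:**
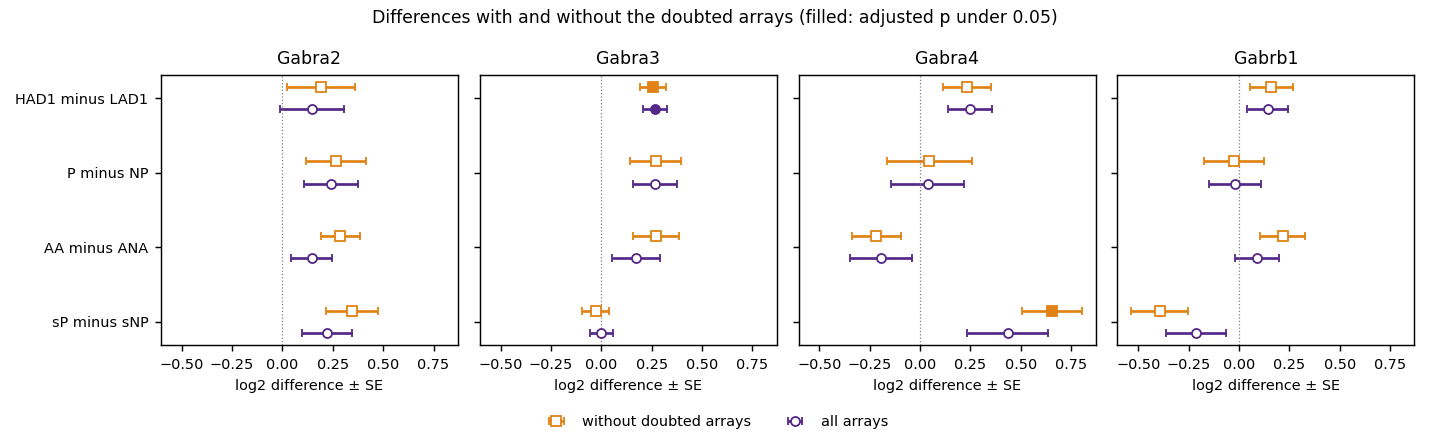
Log2 differences ± SE (x axis) of Gabra2, Gabra3, Gabra4 and Gabrb1 in the 4 pairs that hold doubted arrays, without those arrays (orange squares) and with all arrays (purple circles), filled where the adjusted p is under 0.05. Gabra4 in sP moved to 0.66 without the doubted arrays, against 0.43 with all arrays, and Gabra3 in HAD1 is filled both ways.

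Gabra4 encodes alpha4, which joins the delta subunit in receptors outside the synapse that carry tonic inhibition in thalamus, dentate gyrus and striatum. Gabra4 had the widest difference among the 5 pairs in sP rats, whose lowest, median and highest values were 7.11, 8.31 and 8.90, against 7.42, 7.69 and 8.28 in sNP rats. The sP arrays ran both below and above the sNP range: 6 of 8 lay above the sNP mean, and sP 9 at 7.11 lay below every sNP array. The difference was 0.43 (SE 0.20, p = 0.0427, adjusted p = 0.9998), or 1.351-fold.

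This difference depended on several choices. Without the doubted sP 2, sP 9, sNP 8 and sNP 9 it was 0.66 (SE 0.15), with means of 8.47 in 6 sP and 7.82 in 7 sNP arrays, and passed (adjusted p = 0.0314), in a fit that called 1.75% of all probe sets, against 0% with all arrays. Without sP 9 alone it was 0.59 (adjusted p = 0.604), and without the near-identical sP 2 and sNP 2 it was 0.51 (adjusted p = 0.869). With the GAPDH ratio as a covariate it was 0.18 (SE 0.24).

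In the HAD pairs Gabra4 was positive as well. HAD1 rats had 5.73, 6.16 and 6.84, against 5.57, 5.87 and 6.37 in LAD1 rats, a difference of 0.25 (SE 0.11, p = 0.0345, adjusted p = 0.399). HAD2 rats had 5.94, 6.37 and 6.61, against 5.87, 6.23 and 6.47 in LAD2 rats, a difference of 0.17 (SE 0.08, p = 0.0363, adjusted p = 0.263). In both pairs nearly all preferring arrays lay above the other line's mean, 8 of 9 in HAD1 and 9 of 10 in HAD2, while the ranges overlapped. Gabra4 was dim in these lines, with pair means of 6.04 in HAD1 and LAD1 and 6.28 in HAD2 and LAD2. In the other pairs these means ran from 7.76 to 8.19. The HAD and LAD lines also had the high GAPDH ratios, and no detection calls were used. P rats had 7.73, 8.08 and 9.14, against 7.29, 8.25 and 8.70 in NP rats (0.04, SE 0.18). AA rats had 7.14, 7.68 and 8.32, against 7.17, 7.91 and 8.22 in ANA rats (-0.20, SE 0.15). Differences thus ran from -0.20 to 0.43, and the F test of their variation did not pass (adjusted p = 0.421); it passed without the doubted arrays (adjusted p = 0.0452) and with array weights (adjusted p = 0.0391), in fits that called 10.9% and 12.8% of all probe sets.

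The Gabra4 values moved with a list of markers of striatal neurons. Whether neurons of the central amygdala itself express these markers was not tested. Over 96 arrays with line means removed, Gabra4 and the log2 of the summed 8 striatal markers had Pearson r = 0.58 and Spearman rho = 0.51, with r from 0.34 to 0.80 within the 5 pairs and 0.55 without the 2 arrays farthest out in striatal markers. In sP rats 8 of 8 striatal markers had positive differences, with a median of 0.30, and their summed level ran from 13.61 to 15.22 with a median of 14.56, against 13.68 to 15.22 with a median of 14.20 in sNP rats. In AA rats 0 of 8 were positive, with a median of -0.26, and in P rats 0 of 8, with a median of -0.17, where Gabra4 differed by 0.04. In HAD1 rats 4 of 8 were positive, with a median of -0.02 and a median summed level of 12.69, against 12.82 in LAD1 rats. In HAD2 rats 3 of 8 were positive, with a median of -0.07 and a median summed level of 12.92, against 12.99 in LAD2 rats. Gabra4 differed by 0.25 in HAD1 and 0.17 in HAD2. Other lists were 1-sided in sP as well: 9 of 9 vascular markers were positive, with a median of 0.15, and 1 of 9 astrocyte markers. In all 5 pairs 0 of 8 striatal markers passed the test, and their part in the Gabra4 differences was not tested.

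**Figure D4:**
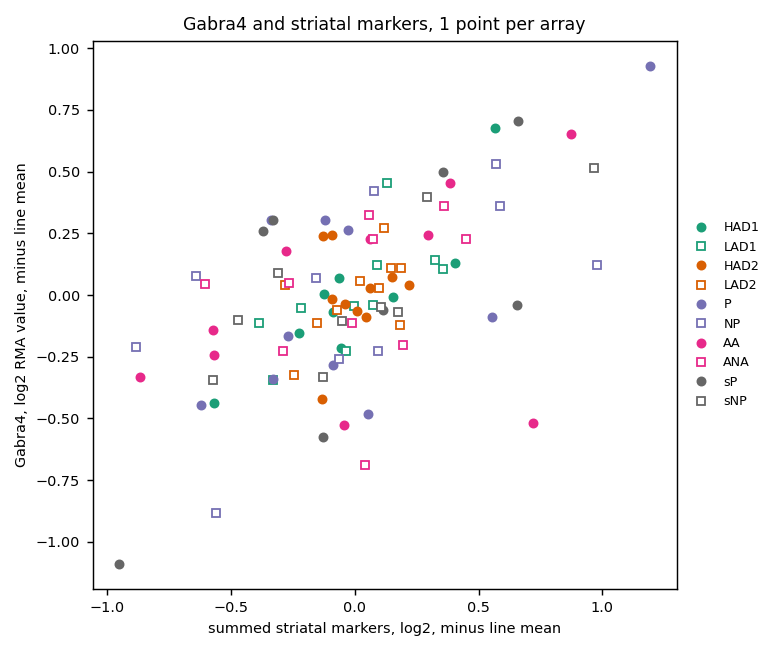
Gabra4 (y axis, log2 RMA value minus its line mean) against the log2 of summed striatal markers (x axis, minus its line mean) on 96 arrays, filled symbols for preferring and open squares for non-preferring lines. Arrays with more striatal marker signal had more Gabra4 signal (Pearson r = 0.58), and sP 9 is the lowest point at -1.09.

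Gabra5 encodes alpha5, known for tonic inhibition of hippocampal pyramidal cells. Its differences were 0.22 in HAD1 rats, -0.17 in HAD2 rats, 0.01 in P rats, -0.03 in AA rats and 0.11 in sP rats, with SEs of 0.10 to 0.16 and adjusted p from 0.473 upwards. The arrays ran from 9.14 to 10.26 in HAD1 and from 8.75 to 10.11 in LAD1. They ran from 9.15 to 10.34 in HAD2 and from 9.78 to 10.32 in LAD2. The lines of each pair overlapped widely, and the sign of the difference was not shared over pairs. The mean over the 5 pairs was 0.03 (SE 0.06, 95% confidence interval -0.09 to 0.15).

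Gabrb1 encodes beta1, 1 of the subunits that form the GABA site with alpha. Its sP rats had 11.96, 12.73 and 13.31, against 12.43, 12.96 and 13.21 in sNP rats, a difference of -0.21 (SE 0.15, adjusted p = 0.9998). Within this pair the sP arrays spread with an SD of 0.43, against 0.22 in sNP. Without the doubted arrays the difference was -0.39 (SE 0.14, adjusted p = 0.283). In HAD2 rats it was -0.11 (SE 0.06, p = 0.0759). Gabra4, its neighbour on chromosome 14, differed by 0.43 in sP and 0.17 in HAD2.

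In the remaining pairs Gabrb1 differed by 0.14 in HAD1 (SE 0.10), -0.02 in P (SE 0.13) and 0.09 in AA (SE 0.11). HAD2 rats had 12.82, 13.17 and 13.32, against 12.99, 13.29 and 13.40 in LAD2 rats, where 2 of 10 HAD2 arrays lay above the LAD2 mean. The mean over pairs was -0.02 (SE 0.05, 95% confidence interval -0.13 to 0.08).

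Gabrb2 encodes beta2, a widely expressed subunit and a site of action of general anaesthetics. Its bright probe set AW522872 differed by -0.16 in HAD1 rats, 0.05 in HAD2 rats, 0.06 in P rats, -0.0059 in AA rats and -0.06 in sP rats, with SEs of 0.06 to 0.14. Its dim probe set NM_012957 differed by -0.03, -0.02, 0.03, 0.12 and -0.01 in the same order, with SEs of 0.05 to 0.11. No difference of either probe set reached an unadjusted p under 0.05. HAD1 rats ran from 13.33 to 14.28 and LAD1 rats from 13.43 to 14.28 on AW522872. The means over pairs were -0.02 (95% confidence interval -0.13 to 0.08) for AW522872 and 0.02 (-0.07 to 0.10) for NM_012957, and both intervals contain 0.

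Gabrg1 encodes gamma1, a gamma subunit found in some receptors of the amygdala, which have a low benzodiazepine sensitivity. AA rats had 7.14, 7.80 and 8.30, against 7.37, 8.29 and 9.06 in ANA rats. The AA arrays lay lower: 2 of 10 were above the ANA mean and 1 of 10 ANA arrays below the AA mean. The difference was -0.52 (SE 0.20, p = 0.0137), or 0.696-fold, and did not pass over all probe sets (adjusted p = 0.897). It ranged from -0.62 to -0.43 when single arrays were left out and was -0.48 without the doubted arrays (adjusted p = 0.315). Of 9 oligodendrocyte markers 0 were positive in AA, with a median of -0.17 and 0 past the test. Their summed level ran from 16.01 to 17.39 in AA and from 16.64 to 17.34 in ANA. Striatal markers had 0 of 8 positive in AA, with a median of -0.26 and 0 past the test. Over 96 arrays with line means removed, Gabrg1 had r = -0.26 with oligodendrocyte and -0.23 with striatal markers. The part of these cells in the Gabrg1 difference was not tested.

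In the other pairs Gabrg1 differed by 0.08 in HAD1 rats, 0.19 in HAD2 rats, 0.17 in P rats and -0.03 in sP rats, with SEs of 0.13 to 0.19. HAD2 rats had 7.45, 7.75 and 8.33, against 7.16, 7.64 and 8.23 in LAD2 rats. P rats had 7.44, 7.68 and 8.43, against 7.10, 7.52 and 8.35 in NP rats. The lines overlapped over most of their range in both pairs. The F test of variation among the 5 differences gave p = 0.0272 for Gabrg1 and p = 0.0379 for Gabra3, and neither passed (adjusted p = 0.249 and 0.296).

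For the mean over the 5 pairs, 0 of 8 probe sets passed limma's test, against 0.986% of all probe sets, and 2 of 8 had an unadjusted p under 0.05, against 7.80% of all. These 2 were Gabra2 and Gabra3, whose mean was 0.13 (SE 0.04, adjusted p = 0.106). Without the doubted arrays 2 of 8 passed, Gabra2 and Gabra3 (0.15, adjusted p = 0.0375), where 2.97% of all probe sets did. With array weights 1 of 8 passed, Gabra2, where 2.23% of all did. For variation among pairs 0 of 8 passed, against 4.54% of all probe sets. Again 2 of 8 reached an unadjusted p under 0.05, against 14.7% of all, and Gabra4 was 1 call of 8 with array weights, against 12.8% of all probe sets, and 1 of 8 without the doubted arrays, against 10.9% of all. Both counts are near the share over all probe sets.

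Levels of several subunits differed more between pairs than within lines, in parallel with the GAPDH ratio. Strain, sample quality and processing thus cannot be told apart. The mean of the pair ran from 9.91 in HAD1 and LAD1 to 12.02 in AA and ANA for Gabra2, whose SD within a line averaged 0.32. For Gabra4 it ran from 6.04 in HAD1 and LAD1 to 8.19 in P and NP, with an average SD of 0.36. Gabra5 ran from 9.50 in HAD1 and LAD1 to 11.16 in AA and ANA. For all 3 the HAD and LAD lines were the 4 lowest lines.

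The order of the lines was marked at few steps. For Gabra4 the step from AA at 7.66 to HAD2 at 6.36 exceeded the larger SD of both lines, and no other step did. For Gabra2 the order was AA, ANA, sP, sNP, P, NP, HAD2, LAD2, HAD1 and LAD1, and the steps from sNP at 11.49 to P at 11.14 and from NP at 10.90 to HAD2 at 10.47 exceeded the larger SD of the neighbours. Gabra5 stepped by 0.78 from NP at 10.93 to LAD2 at 10.15, and by 0.37 from HAD2 at 9.98 to HAD1 at 9.61. Gabrb2 on AW522872 ran the other way, highest in HAD1 at 13.85 and LAD1 at 14.01 and lowest in AA at 12.70. The dim Gabrb2 probe set NM_012957 did not. Its lowest means were those of the HAD and LAD lines, from 6.55 in HAD2 to 6.59 in LAD1, with ANA next at 6.70. The probe sets of Gabrb2 thus disagreed on the order of the lines.

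Gabra3, Gabrb1, Gabrg1 and the dim Gabrb2 probe set spread less over lines. Gabra3 was highest in P at 6.28 and lowest in LAD1 at 5.50, and the step from sP at 5.72 to LAD1 was the 1 step larger than the SDs of both neighbours. Gabrb1 lay between 12.69 in sP and 13.23 in LAD2, and no step exceeded the SDs. Gabrg1 lay between 8.61 in HAD1 and 7.60 in NP, with 1 such step, from sP at 8.17 to HAD2 at 7.80. For NM_012957 the pair means lay 0.43 apart at most, and no step exceeded the SDs.

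Some subunits moved together from array to array and others did not. Over 96 arrays with line means removed, the closest were Gabra4 and Gabra5 (Pearson r = 0.62, Spearman rho = 0.74), with r from 0.53 to 0.77 within the 5 pairs. Gabra2 went with Gabrb1 (r = 0.56, rho = 0.58, from 0.34 to 0.82 within pairs) and with Gabra5 (r = 0.56, rho = 0.51, from 0.13 to 0.68). Gabrg1 went with Gabrb1 (r = 0.49, rho = 0.48, from 0.12 to 0.81) and with Gabra2 (r = 0.46, rho = 0.47, from 0.28 to 0.62). Without the 14 doubted arrays and sNP 2, r lay between 0.54 and 0.64 for these 5 relations over 81 arrays. Gabra5 and Gabrg1 (r = 0.13) and Gabra4 and Gabrg1 (r = 0.16) were not close.

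Neighbours in the cluster were not always close: Gabra4 and its neighbour Gabrb1 had r = -0.11 (rho = 0.06), while Gabra4 and Gabra5, on different chromosomes, had the highest value of the 28 relations computed. The 2 probe sets of Gabrb2 had r = 0.43 (rho = 0.35), from -0.13 to 0.67 within pairs. AW522872 ran against Gabra5 (r = -0.35, rho = -0.35). These are descriptions: arrays share dissection, RNA quality and processing, and the 28 relations were given no p.

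**Figure D5:**
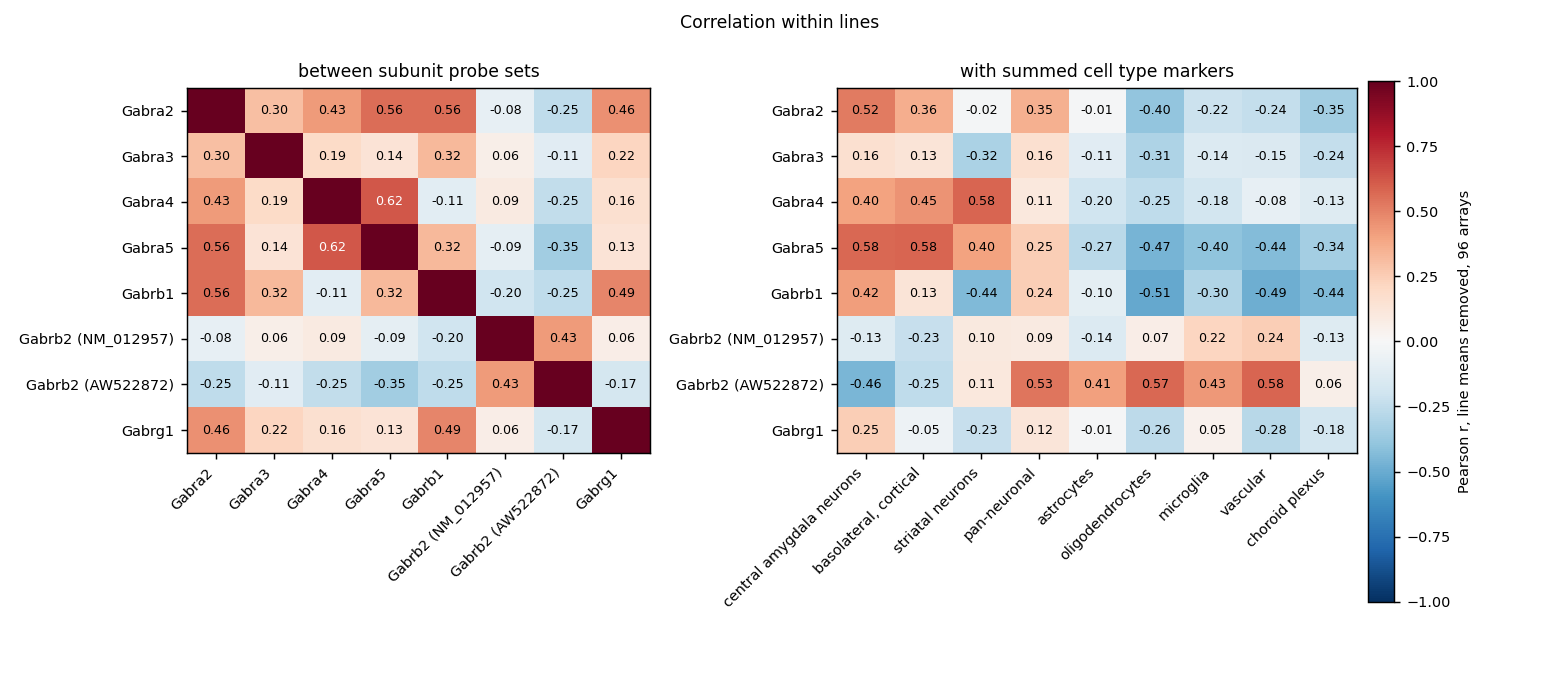
Pearson r over 96 arrays with line means removed, between the 8 subunit probe sets (left) and between each probe set and the log2 of summed markers of 9 cell classes (right), red for positive and blue for negative values. Gabra4 and Gabra5 have the highest value between subunits at 0.62, and Gabrb2 on AW522872 is positive with oligodendrocyte (0.57) and vascular markers (0.58) where Gabra2, Gabra5 and Gabrb1 are negative.

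With cell class markers the subunits also differed. Gabra2 and Gabra5 went with markers of central amygdala neurons (r = 0.52 and 0.58), and Gabra5 with basolateral and cortical excitatory neurons (r = 0.58, from 0.13 to 0.94 within pairs). Gabra5 also had r = 0.40 with striatal markers. Gabra4 had r = 0.40 with central amygdala, 0.45 with basolateral and cortical and 0.58 with striatal markers. Gabrb1 ran against striatal (r = -0.44), oligodendrocyte (r = -0.51) and vascular markers (r = -0.49). Gabrb2 on AW522872 went with pan-neuronal (r = 0.53), oligodendrocyte (r = 0.57) and vascular markers (r = 0.58) and against central amygdala markers (r = -0.46). For Gabra3 all values lay between -0.32 and 0.16.

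The genes most like each subunit over arrays, by Pearson r with line means removed among 14210 other genes, were as follows. Gabra2 was closest to Gria2 (0.77), an AMPA receptor subunit, Prkce (0.77), a protein kinase C, and Acta1 (0.74), an actin. Gabra4 was closest to Rasgrp1 (0.71), a Ras activator, Grin2b (0.68), an NMDA receptor subunit, and Hpca (0.68), the calcium sensor hippocalcin. Gabra5 was closest to Kcna4, a potassium channel, Cnksr2, a synaptic scaffold, and Mmd, each at 0.83. The highest value with another of the 8 probe sets was 0.62 for Gabra4 and Gabra5 and 0.56 for Gabra2.

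Gabrb1 was closest to Tro (0.85), Sgsm1 (0.83) and Tmem150c (0.83). Gabrb2 on AW522872 was closest to Cplx1 (0.87), which binds the release machinery, Scn1a (0.86), a sodium channel, and Ubxn2a (0.85). Gabrg1 was closest to Arid4a (0.64), Wrnip1 (0.62) and Fam120b (0.62). Gabra3 had the weakest, Vstm2b (0.57), Gsr (0.56), which encodes glutathione reductase, and Hes5 (0.55), and these ranked 84, 175 and 69 once the GAPDH ratio was removed as well. For the other subunits the genes named stayed within the first 37 ranks.

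The rest of the GABA-A pathway gave no call. The analysis covered 9 further subunit genes, among them Gabrd, Gabre, Gabrq and the rho subunits, and 0 of 9 passed limma's test in any pair or in the mean. By the brightest probe set of each, 5 of 9 were positive in HAD1, 0 in HAD2, 2 in P, 8 in AA and 4 in sP, with medians of 0.0036, -0.09, -0.05, 0.06 and -0.03 in that order. Of 23 measured genes for clustering and trafficking of the receptor 0 passed, and of 13 for GABA synthesis, transport, GABA-B receptors and chloride transport 0 passed. Their medians lay between -0.05 and 0.03 in every pair, those of all genes between -0.01 and 0.0057. Over all 14217 genes 0.682% passed in HAD1, 3.75% in HAD2 and 0% in the other 3 pairs.

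Gabrd encodes the delta subunit that joins alpha4. Its brightest probe set differed by 0.05 in HAD1, -0.21 in HAD2 (p = 0.0258, adjusted p = 0.223), -0.15 in P, -0.05 in AA and 0.17 in sP, where Gabra4 differed by 0.25, 0.17, 0.04, -0.20 and 0.43. Among the further subunits the smallest p was that of a probe set of Gabrr2, a rho subunit, in AA rats at 0.22 (SE 0.07, p = 0.0042, adjusted p = 0.705), chosen after its values were seen.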

How the data were processed

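RNA from the central nucleus of the amygdala (25 ng total RNA, Affymetrix 2-cycle labelling, per the labels' protocols) was hybridised to 96 arrays. The authors deposited log2 values made with RMA, per the submitters' processing notes, with no version stated there. RMA corrects the background, normalizes arrays to each other and summarises probes, so values are relative and an array-wide shift is removed. Array medians ran from 7.77 to 8.02. Of the probe sets 57 controls were left out, and of the 31042 others the platform annotation gave 1 symbol to 20826, several to 436 and did not list 9780.

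The arrays of each pair were fitted separately in limma 3.58.1 (R 4.3.3) with an intensity trend, preferring minus non-preferring line, and Benjamini-Hochberg adjustment over all 31042 probe sets. The equal-weight mean of the 5 differences and an F test of their variation came from 1 fit of all 10 lines. Confidence intervals are at 95%, with precision limited by how many arrays a line has. The fit was tested on simulated data. Marker lists were summed on the linear scale and logged, and correlations used values with line means removed. Genes most like a subunit were the 3 with the highest such correlation, by 1 probe set per gene, and further genes were named from fixed pathway and marker lists. The genes and lists were chosen with earlier results of these data known. Replicate numbers shared by P and NP and by sP and sNP were not used to pair the arrays in the main fits. Alternatives were the trend, array weights, a brightness filter, 1 probe set per gene, centring, quantile normalization, the GAPDH ratio as covariate, 1 fit of all lines, a replicate block, the label of LAD1 36 and leaving out arrays or pairs.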

Additional observations from a re-analysis of the deposited data

Results flagged for a closer look

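In 3 of 80 combinations of line and probe set the highest or lowest array stood apart from the rest of its line, and chance alone marks about 1 in 20 such groups. Gabra3 on HAD1 25 was 6.06, with the nearest HAD1 array at 5.83 and a line median of 5.80, and without this array the HAD1 difference was 0.23 (limma adjusted p = 0.0443). Gabra4 on HAD2 5 was 5.94, with the nearest HAD2 array at 6.27 and a line median of 6.37. Gabrg1 on sP 7 was 7.42, with the nearest sP array at 8.03 and a line median of 8.23.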

How the results depend on the processing

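Of the 480 values of single probe sets under alternatives other than leaving out 1 array, 450 kept their direction and their side of the threshold, 4 came past it, 2 lost it and 24 changed sign, the last all among differences that did not pass. The call of Gabra3 in HAD1 was lost with all 10 lines in 1 fit and with LAD1 36 counted as HAD1, which left 0 of 8 calls each, as did keeping the brighter 50% of probe sets, where Gabra3 was not tested. It was kept under the other 7 alternatives, and leaving out 1 array gave 0 to 1 calls. Without the doubted arrays there was 1 call in sP (Gabra4), 2 for the mean of the pairs (Gabra2 and Gabra3) and 1 for variation among pairs (Gabra4), and array weights gave 1 for the mean (Gabra2) and 1 for variation (Gabra4). In these fits 542, 921 and 3392 of all probe sets were called without the doubted arrays, and 692 and 3972 with array weights, against 0 for sP, 306 for the mean and 1409 for variation. Over all probe sets the calls in HAD1 ran from 4 with LAD1 36 counted as HAD1 to 796 without the doubted arrays, against 299, and those in HAD2 from 526 with 1 probe set per gene to 1815 with array weights, against 1271. In P, AA and sP they ran from 0 to 502, 579 and 542, each highest without the doubted arrays. The causes of these changes were not tested.

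Signs changed as follows. With LAD1 36 counted as HAD1, Gabra2 in HAD1 was -0.025, against 0.15. Array weights gave -0.063 for Gabra4 and -0.065 for Gabra5 in P, 0.063 for Gabrg1 in sP and 0.019 for Gabrg1 in the mean. The GAPDH covariate gave -0.0072 for Gabra4, -0.016 for Gabra5 and -0.017 for Gabrb2 (NM_012957) in P, 0.012 for Gabrb2 (AW522872) in AA, and -0.0093 for Gabra5 (against 0.11) and 0.13 for Gabrg1 in sP. Quantile normalization gave 0.0077 for Gabrb2 (NM_012957) in HAD2, -3.41e-04 for Gabra5 in P and 0.016 for Gabra3 in sP, and centring gave 2.25e-04 for Gabrb2 (AW522872) in AA. Without the doubted arrays Gabra5 in P was -0.023 and Gabrb2 (NM_012957) in sP 0.048, and Gabrb2 (NM_012957) in sP was 0.017 without the near-identical arrays. The mean without HAD1 and LAD1 was -0.022 for Gabra5 and 0.011 for Gabrb2 (AW522872), without AA and ANA -0.0082 for Gabrb2 (NM_012957) and 0.10 for Gabrg1, and without sP and sNP 0.025 for Gabrb1.

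Leaving out 1 array crossed 0 in HAD2 for Gabrb2 (NM_012957), from -0.049 to 6.32e-04. In P it did so for Gabra4 (-0.066 to 0.096), Gabra5 (-0.079 to 0.088), Gabrb1 (-0.089 to 0.042), Gabrb2 on NM_012957 (-0.0094 to 0.085) and on AW522872 (-0.0095 to 0.15). In AA it did so for Gabra5 (-0.076 to 0.015) and Gabrb2 on AW522872 (-0.045 to 0.037). In sP it did so for Gabra3 (-0.030 to 0.023), Gabrb2 on NM_012957 (-0.046 to 0.048) and on AW522872 (-0.13 to 0.0015), and Gabrg1 (-0.092 to 0.081).

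Whether replicate numbers shared by P and NP and by sP and sNP pair the arrays was not settled. Deviations of same-numbered arrays correlated over 0.1 in 5 of 10 and 3 of 8 cases, from -0.11 to 0.50 and from -0.18 to 0.77. The value of 0.77 was that of the near-identical sP 2 and sNP 2, and the next highest for sP and sNP was 0.28. These correlations were not compared with those of differently numbered arrays. A fit with the replicate block, without the unpaired sNP 8, gave 0 calls in both pairs, with Gabra3 at 0.27 in P (limma adjusted p = 0.893), Gabra4 at 0.43 in sP (0.845) and Gabrb2 (NM_012957) at 0.019 in sP.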
